A study of Mus musculus with 9 samples.

Results

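The genes of focal adhesion kinase (FAK), its paralog PYK2 and 8 of their partners at focal adhesions were followed in mouse mammary tumors treated with a FAK inhibitor. The 10 genes were Ptk2 (encoding FAK), Ptk2b (PYK2), Src, Pxn (paxillin), Bcar1 (p130Cas), Grb7, Tln1 (talin 1), Vcl (vinculin), Zyx (zyxin) and Ilk (integrin-linked kinase), found by Entrez identifier through their RefSeq symbols among the 18755 genes of the count table. They were grouped by their role at adhesions, with earlier results of these data known. All 10 passed the filter on low counts that left 13966 genes for testing.

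RNA sequencing had been carried out on primary tumors of 4T1, a single mouse mammary carcinoma line transplanted into the mammary fat pad of female BALB/c mice aged 6 to 10 weeks. Treatment began on day 15 after the transplantation and lasted 5 days. The 3 vehicle tumors (replicates 1 to 3) came from mice given 0.5% Natrosol, and the 6 BI tumors (replicates 4 to 9) from mice given the FAK inhibitor BI 853520, abbreviated BI, at 50 mg/kg by oral gavage. RNA was taken from pieces of whole tumor, which hold host cells beside carcinoma cells, so that for every gene a smaller number of expressing cells and less RNA in each cell cannot be told apart.

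Focal adhesions are the sites at which integrins, the receptors for the extracellular matrix, are tied to actin filaments inside the cell. Talin and kindlins bind the integrin tail, vinculin ties talin to actin, and zyxin joins where the adhesion is under tension. FAK is recruited there, phosphorylates itself and forms a docking site for SRC, after which both kinases phosphorylate the scaffolds paxillin and p130Cas. PYK2 is built like FAK and is known for its use in leukocytes, whereas ILK is a pseudokinase that links integrins to parvins and PINCH proteins. BI blocks the kinase activity of FAK. The counts measured transcripts, not the kinase activity or the phosphorylation of any of these proteins.

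The deposited counts per tumor summed to between 16931607 and 33850245, the deepest library being vehicle replicate 3. Levels are given as counts per 1000000 (CPM) after scaling of the libraries by the TMM method, and differences as log2 fold changes of BI against vehicle with their standard error (SE). A gene was called where edgeR's quasi-likelihood test gave a p of at most 0.05 after Benjamini-Hochberg adjustment over all 13966 genes.

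Of the 10 genes, 4 fell in the BI tumors (Vcl, Bcar1, Src and Ptk2), none was called higher, and 6 were not called. Among all genes tested, 14.1% were called lower and 14.6% higher. The decreases were small, between 13.2% and 28.2% of the vehicle mean. In the same 4 genes, every BI tumor lay below every vehicle tumor, and 14.0% of all genes tested had that pattern. No member had all BI tumors above all vehicle tumors, against 14.1% of all genes. The median log2 fold change of the 10 genes was -0.19, beside -0.00371 over all genes tested. With a cutoff of an unadjusted p of at most 0.05 and a change of at least 1.5-fold, 0 members were higher and 1, Grb7, was lower, where 9.57% of all genes were higher and 3.57% lower. Without vehicle replicate 1 that count was 0. The count of members called lower fell to 2 without vehicle replicate 1 and to 2 without BI replicate 7, with Bcar1 and Vcl left in both cases. Without vehicle replicate 3 it was again 4, but these were Bcar1, Vcl, Zyx and Grb7.

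**Figure D1:**
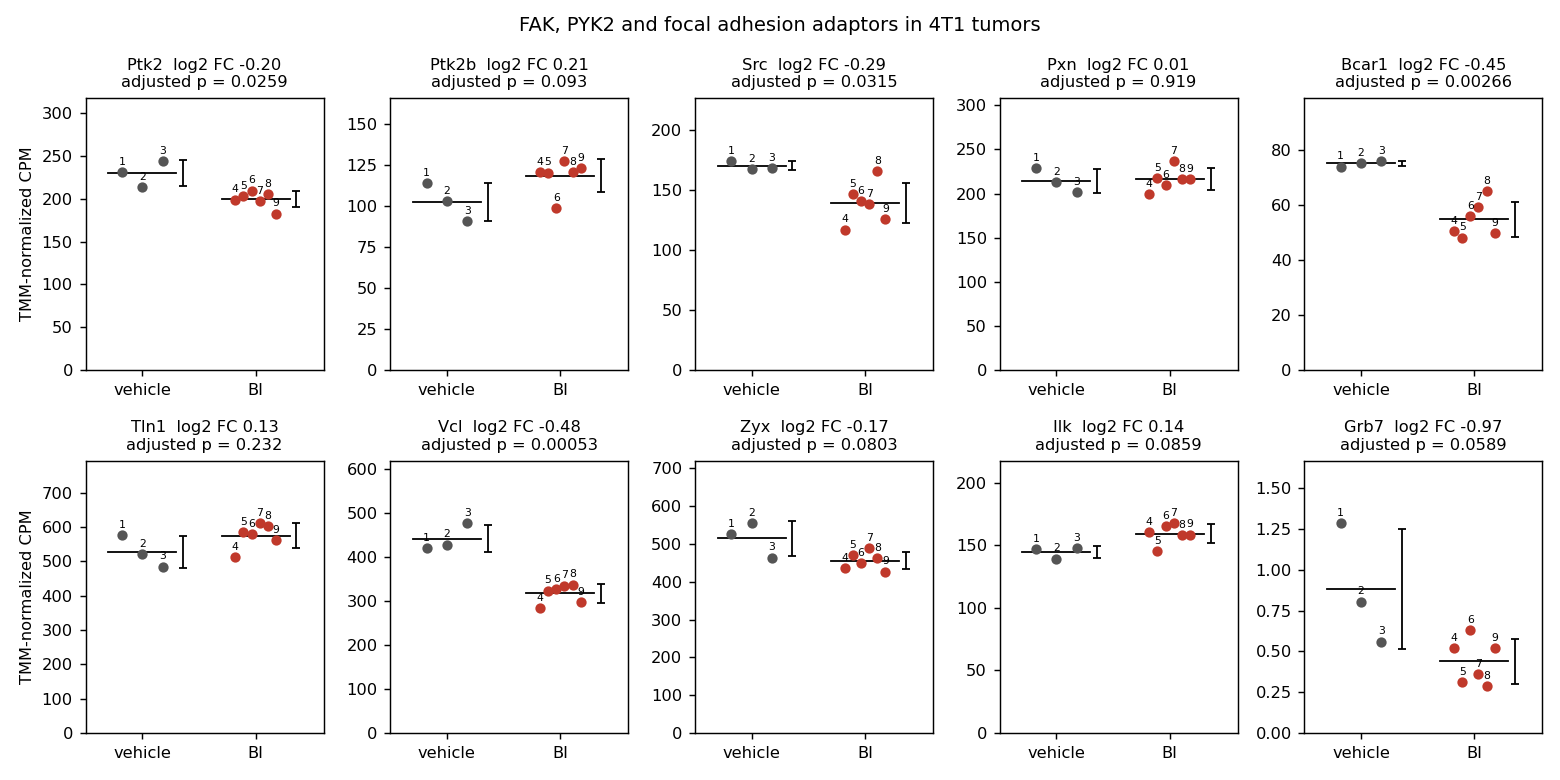
TMM-normalized CPM of each of the 10 genes (vertical axes, one panel per gene with its own scale) in the 3 vehicle tumors and the 6 BI tumors, with points for single tumors numbered by replicate, lines at the group mean and bars of ± 1 SD. The groups are separate, with BI lower, for Ptk2, Src, Bcar1 and Vcl, and they overlap for the other genes.

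**Figure D2:**
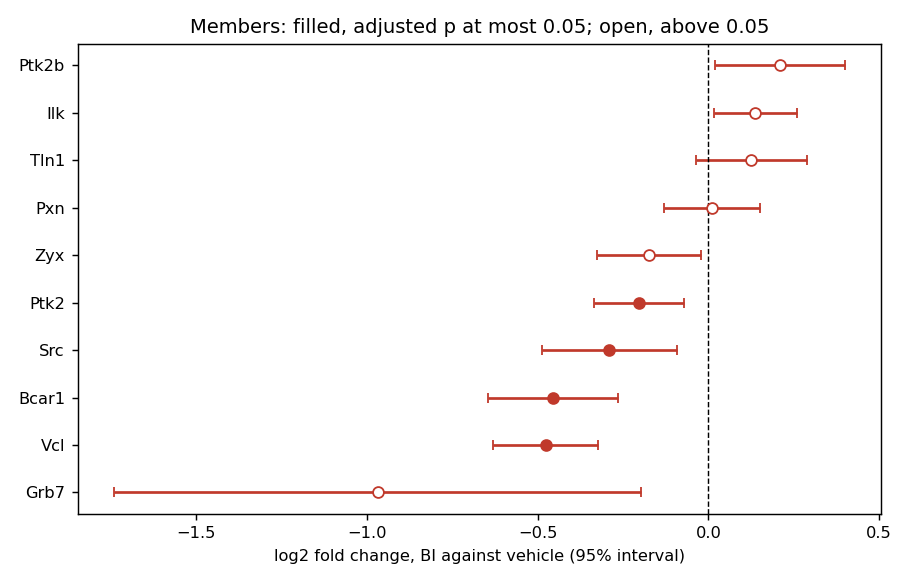
Log2 fold change of BI against vehicle (horizontal axis) with its 95% interval for each gene, filled where the adjusted p was at most 0.05. Vcl, at -0.48, and Bcar1, at -0.45, lie farthest below 0 among the filled points, and the interval of Grb7 is the widest.

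Among the kinases, Ptk2 and Src fell and Ptk2b did not pass the test. Ptk2 (Entrez 14083, chromosome 15, 73035535 to 73253621 on the minus strand of mm9) encodes the kinase that BI targets. It was measured at 231, 214 and 244 CPM in vehicle replicates 1, 2 and 3. In the 6 BI tumors its lowest value was 183, its median 201 and its highest 209.5 CPM. The groups did not overlap, although the highest BI tumor came within a few CPM of the lowest vehicle tumor. Ptk2 thus went from 230 ± 15.4 CPM (SD, n = 3) to 199 ± 9.28 CPM (SD, n = 6), a log2 fold change of -0.20 (SE 0.0606, adjusted p = 0.0259 in edgeR's quasi-likelihood test). The call was lost without vehicle replicate 1 (adjusted p = 0.0814), vehicle replicate 3 (adjusted p = 0.133) or BI replicate 7 (adjusted p = 0.0514).

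Ptk2b (Entrez 19229, chromosome 14, 66772094 to 66899889 on the minus strand) encodes PYK2, the only other kinase of the FAK family. Its vehicle values were 114, 103 and 91.1 CPM. The BI tumors ran from 99.0 CPM in replicate 6 through a median of 121 to 128 CPM. All BI tumors other than replicate 6 were above every vehicle tumor. The log2 fold change was 0.21 (SE 0.0871, 95% interval 0.02 to 0.40), with an adjusted p of 0.0930 in edgeR's test. Without BI replicate 6 it was 0.26 and was called higher (adjusted p = 0.0219).

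Src (Entrez 20779, chromosome 2, 157244180 to 157297598 on the plus strand) encodes the kinase that docks on FAK. The vehicle tumors lay close together at 175, 168 and 169 CPM. The BI tumors were spread between 117 CPM in replicate 4 and 166 CPM in replicate 8, with a median of 139.5 CPM. All 6 were below the vehicle tumors, replicate 8 only just. The coefficient of variation was 2.20% among the vehicle tumors and 12.2% among the BI tumors. Src fell by 0.29 on the log2 scale (SE 0.0903, adjusted p = 0.0315 in edgeR's test). Leaving out any vehicle tumor took the adjusted p above the threshold (0.102, 0.0705 and 0.0824 without replicates 1, 2 and 3), as did leaving out BI replicate 7 (0.0570) or 9 (0.0552).

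Of the 3 scaffold and adaptor genes, Bcar1 fell, Pxn was not called, and Grb7 was measured from few counts. Bcar1 (Entrez 12927, chromosome 8, 114234367 to 114267748 on the minus strand) encodes p130Cas, a substrate of FAK and SRC. It was at 73.9, 75.2 and 76.0 CPM in the vehicle tumors. In the BI tumors it ranged from 48.1 CPM in replicate 5 to 64.8 CPM in replicate 8, with a median of 53.2. There was no overlap, and the gap between the lowest vehicle and the highest BI tumor was wider than the whole vehicle range. The mean went from 75.0 ± 1.08 CPM (SD, n = 3) to 54.7 ± 6.45 CPM (SD, n = 6), a log2 fold change of -0.45 (SE 0.0871, adjusted p = 0.00266 in edgeR's test). The coefficient of variation was 1.43% in vehicle and 11.8% in BI tumors. Bcar1 stayed called under all 16 alternative settings, at -0.50 to -0.42 and adjusted p values up to 0.0156.

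Pxn (Entrez 19303, chromosome 5, 115956685 to 116005996 on the plus strand) encodes paxillin, the scaffold that binds both FAK and vinculin. Its vehicle values were 229, 213 and 202 CPM, and its BI values ran from 199 through a median of 217 to 237 CPM. The vehicle range lay inside the BI range. The log2 fold change was 0.01 (SE 0.0643, adjusted p = 0.919 in edgeR's test), with a 95% interval of -0.13 to 0.15, and its sign turned without vehicle replicate 3 or BI replicate 7.

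Grb7 (Entrez 14786, chromosome 11, 98307708 to 98316687 on the plus strand) encodes an adaptor with an SH2 domain that binds FAK and ERBB2. Only 28, 18 and 19 counts were found in the vehicle tumors, or 1.28, 0.805 and 0.560 CPM. The BI tumors held 5 to 13 counts, or 0.285 to 0.628 CPM with a median of 0.440. BI replicate 6 overlapped the vehicle range, and the other BI tumors lay below it. The log2 fold change of -0.97 had an SE of 0.354 and an adjusted p of 0.0589 in edgeR's test, with a 95% interval of -1.74 to -0.20. It shrank to -0.61 without vehicle replicate 1. At this depth 3 counts correspond to 0.0884 to 0.174 CPM, and the lowest BI tumor held 5 counts of Grb7.

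The 3 genes that couple integrins to actin did not move together. Vcl (Entrez 22330, chromosome 14, 21748655 to 21852895 on the plus strand) was at 421, 429 and 477 CPM in the vehicle tumors. In the BI tumors it was at 284 CPM in replicate 4, the lowest, 326 at the median and 337 CPM in replicate 8, the highest. The groups were well apart. Vcl went from 442 ± 30.1 CPM (SD, n = 3) to 318 ± 21.8 CPM (SD, n = 6), a log2 fold change of -0.48 (SE 0.0705, adjusted p = 0.00053 in edgeR's test). It was called in all 16 alternative settings, between -0.51 and -0.42, with adjusted p values up to 0.00501.

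Tln1 (Entrez 21894, chromosome 4, 43544391 to 43575563 on the minus strand) encodes talin 1, the protein to which vinculin binds. Its vehicle values were 576, 522 and 485 CPM. The BI tumors ran from 512 CPM through a median of 583 to 610 CPM, and 4 of the 6 were above all vehicle tumors. The log2 fold change was 0.13 (SE 0.0749, 95% interval -0.04 to 0.29, adjusted p = 0.232 in edgeR's test). Per kilobase of gene length, Tln1 was at 0.621 to 0.835 times the level of Vcl in the vehicle tumors and at 1.08 to 1.15 times in the BI tumors. With the gene lengths used, Vcl was thus above Tln1 in every vehicle tumor and below it in every BI tumor. Vcl alone already separated the groups and Tln1 was not called, so the ratio is no further result.

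Zyx (Entrez 22793, chromosome 6, 42299827 to 42310145 on the plus strand) encodes zyxin, a LIM domain protein of mature adhesions and stress fibers. The vehicle values were 525, 554 and 464 CPM, and the BI values went from 427 through a median of 456 to 489 CPM. The groups overlapped at vehicle replicate 3, and 4 of the 6 BI tumors were below all vehicle tumors. The log2 fold change of -0.17 (SE 0.0698, 95% interval -0.33 to -0.02) had an adjusted p of 0.0803 in edgeR's test. Without vehicle replicate 3 it was -0.24 with an adjusted p of 0.0409.

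Ilk (Entrez 16202, chromosome 7, 112885106 to 112891439 on the plus strand), the core of the ILK-PINCH-parvin complex, was at 147, 139.5 and 148 CPM in the vehicle tumors. The BI tumors ran from 146 CPM in replicate 5 through a median of 160 to 168 CPM. Only BI replicate 5 fell within the vehicle range, and the other BI tumors were above it. The log2 fold change was 0.14 (SE 0.0560, 95% interval 0.02 to 0.26), with an adjusted p of 0.0859 in edgeR's test. It was 0.16 and called higher without BI replicate 5 (adjusted p = 0.0286).

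Exons of 4 of the 10 genes overlap those of a gene on the opposite strand, and whether the counting used strand is not given in the sources used here. The partners are Creb3 for Tln1, Ap3m1 for Vcl, Epha1 for Zyx, and Rrp8 and Taf10 for Ilk. None of these 5 was called, and their log2 fold changes ran from -0.08 for Ap3m1 to 0.18 for Creb3. Creb3 came near a call (adjusted p = 0.0537 in edgeR's test), with all 6 BI tumors above every vehicle tumor. It was at 35.0 ± 0.802 CPM (SD, n = 3) in vehicle and 39.6 ± 2.12 CPM (SD, n = 6) in BI tumors, the direction of Tln1. Ap3m1 was at 87.4 ± 3.56 CPM (SD, n = 3) in vehicle and 82.9 ± 2.63 CPM (SD, n = 6) in BI tumors, the direction of Vcl. Any part of reads from the other strand in the counts of the 4 members was not tested.

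Sequences around a transcription start are shown for the 3 called genes that have an entry in the RefSeq promoter table (Vcl, Bcar1 and Src), and for Tln1, which was not called. Each spans 250 bases before to 50 after the start, 5′ to 3′, and was matched once on mm9: chr14:21748370-21748669 on the plus strand for Vcl, chr8:114267700-114267999 on the minus strand for the outer of 2 windows of Bcar1, chr2:157249779-157250078 on the plus strand for Src, and chr4:43575406-43575705 on the minus strand for Tln1. The Src window lies inside the gene, which begins at 157244180 in the positions used here, so its start is not the outermost one. Capitals mark matches, on either strand, to the CArG box bound by SRF, to TGANTCA (the AP-1 site), to GGAATG (the TEAD site), to GGGCGG (the GC box) or to CCGGAAG (an ETS-type site).
Vcl: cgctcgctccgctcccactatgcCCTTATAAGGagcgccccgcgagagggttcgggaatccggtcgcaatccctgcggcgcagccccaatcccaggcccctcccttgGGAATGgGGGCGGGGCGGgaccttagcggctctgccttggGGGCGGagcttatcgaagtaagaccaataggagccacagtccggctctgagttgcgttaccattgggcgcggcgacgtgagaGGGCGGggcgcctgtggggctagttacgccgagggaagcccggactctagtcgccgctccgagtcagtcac
Bcar1: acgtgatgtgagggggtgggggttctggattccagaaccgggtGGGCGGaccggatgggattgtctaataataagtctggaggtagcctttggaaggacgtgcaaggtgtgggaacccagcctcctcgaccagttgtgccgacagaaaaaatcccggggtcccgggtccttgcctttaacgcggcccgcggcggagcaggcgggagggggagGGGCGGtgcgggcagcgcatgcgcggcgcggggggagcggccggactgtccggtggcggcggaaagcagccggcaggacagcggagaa
Src: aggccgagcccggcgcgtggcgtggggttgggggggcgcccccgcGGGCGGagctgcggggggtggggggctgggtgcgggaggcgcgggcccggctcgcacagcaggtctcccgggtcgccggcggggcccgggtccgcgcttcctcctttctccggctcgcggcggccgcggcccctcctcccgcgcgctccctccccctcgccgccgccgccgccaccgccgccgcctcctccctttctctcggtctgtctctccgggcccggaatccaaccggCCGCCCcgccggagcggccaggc
Tln1: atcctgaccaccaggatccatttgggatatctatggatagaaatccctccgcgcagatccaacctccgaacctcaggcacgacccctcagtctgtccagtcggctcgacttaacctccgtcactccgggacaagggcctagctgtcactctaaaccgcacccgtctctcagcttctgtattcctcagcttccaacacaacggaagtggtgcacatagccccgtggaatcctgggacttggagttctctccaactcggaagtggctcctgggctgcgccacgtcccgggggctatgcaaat
The Vcl window held a CArG box at -227 from the start, a match that 1.63% of 32851 mouse promoter windows of this length hold. It also held 1 TEAD match at -143 (14.7% of windows have one) and 4 GC boxes, of which those at -136 and -131 overlap. The Bcar1 window held GC boxes at -207 and -38, and the Src window at -205 and, on the minus strand, at 28. GC boxes were present in 35.7% of all windows. None of the 5 motifs was in the Tln1 window. Among the other members with an entry, Zyx had an AP-1 match at -121 (7.81% of windows) and 2 GC boxes, and both windows of Ilk had an ETS-type match (8.86% of windows). These are matches of letters, and binding of a factor was not measured.

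Divided by gene length, the transcripts of the 10 genes ranged from abundant to barely detected. Over the 9 tumors Zyx stood highest at 195 ± 17.0 CPM per kilobase (SD), above every value of the next gene. Ilk (82.2 ± 5.19), Vcl (68.7 ± 12.7) and Tln1 (65.3 ± 5.08) followed with overlapping ranges in CPM per kilobase. Ilk was above Vcl in 6 of 9 tumors, all of them BI tumors, and Vcl above Tln1 in 3 of 9, all of them vehicle tumors. Pxn came next at 57.0 ± 3.18 CPM per kilobase and was below Tln1 in each of the 9 tumors. Ptk2 (42.0 ± 3.70) and Src (38.5 ± 5.30) had overlapping ranges in CPM per kilobase, Ptk2 being the higher in 7 of 9 tumors. Ptk2b (28.1 ± 3.13) was below Src in all 9 tumors and above Bcar1 (18.8 ± 3.46 CPM per kilobase) in 8 of 9. Grb7 was far below the rest at 0.245 ± 0.129 CPM per kilobase.

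Per kilobase, the level of Pxn was 2.30 to 2.69 times that of Bcar1 in the vehicle tumors and 2.90 to 3.92 times in the BI tumors. Bcar1 alone already separated the groups and Pxn was not called, so this ratio too is no further result. The level of Ptk2 was 1.64 to 2.17 times that of Ptk2b in vehicle and 1.20 to 1.71 times in BI tumors, the ranges overlapping at BI replicate 6. For Ptk2 against Src the ranges of this ratio overlapped, at 0.993 to 1.13 in vehicle and 0.960 to 1.32 in BI tumors.

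**Figure D3:**
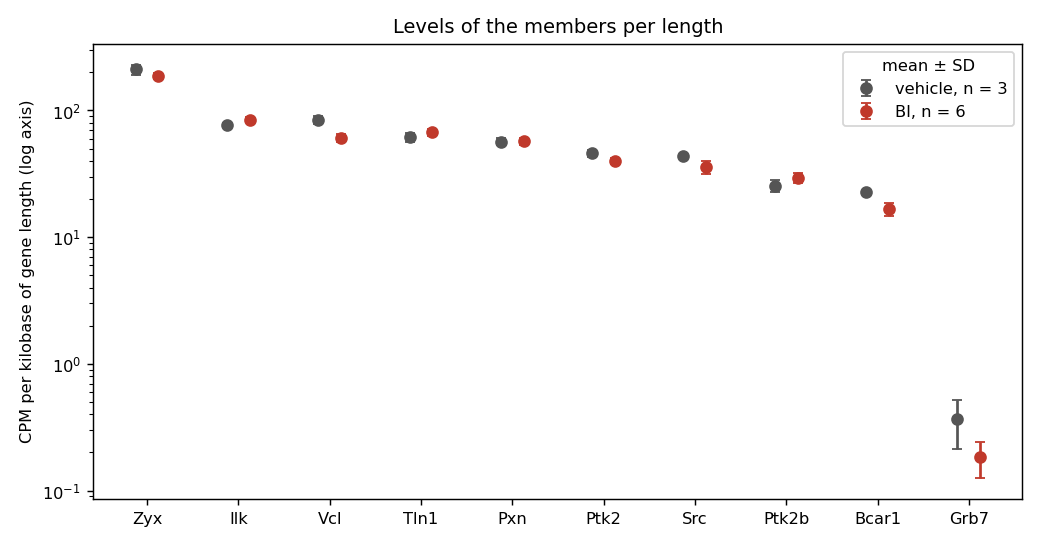
Mean CPM per kilobase of gene length (vertical log axis, error bars SD) of the 10 genes in vehicle (n = 3) and BI tumors (n = 6), ordered by the mean over all 9 tumors. Vcl, at 84.6 in vehicle, lies above Ilk and Tln1 there and below both in BI tumors, at 60.8, while Grb7 stays under 1.

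Around these 10 genes, 50 further focal adhesion genes were examined in 4 lists set by role, of which 48 were tested. There, 8 genes rose, 12 fell and 28 were not called, with a median log2 fold change of -0.05, where 14.6% of all genes tested were called higher and 14.1% lower. All 8 that rose had BI tumors above every vehicle tumor, and 14 genes had them below every vehicle tumor, beside 14.1% and 14.0% of all genes. The share that rose, 8 of 48, was near that of all genes. The number that fell went from 12 to 5 without vehicle replicate 3, and the number that rose from 8 to 7.

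Of the 6 other kinases and regulators, 2 rose and none fell, where 14.6% of all genes tested were called higher and 14.1% lower. Fyn, a kinase of the Src family used in T cells as well as in adhesion, went from 40.7 ± 2.64 to 59.7 ± 3.22 CPM (SD), a log2 fold change of 0.55 (adjusted p = 0.000139 in edgeR's test). Csk, the kinase that switches off SRC, rose by 0.20 (adjusted p = 0.0175 in edgeR's test, and 0.0936 without vehicle replicate 3). The direction of Fyn was thus the opposite of that of Src, and so was that of Csk.

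Of 17 scaffolds and adaptors tested (Grb14 was not), 2 rose and 3 fell, counts near what the shares of 14.6% and 14.1% over all genes would give. The genes that rose were Lpxn, the leukocyte member of the paxillin family (log2 fold change 0.68, adjusted p = 0.00173), and Grb2, the adaptor that leads to RAS (0.32, adjusted p = 0.00346). Those that fell were Sorbs3, encoding the vinculin-binding protein vinexin (-0.46, adjusted p = 0.00136), Asap1, a GTPase-activating protein that binds FAK (-0.38, adjusted p = 0.0111), and Nedd9, a close relative of Bcar1 (-0.36, adjusted p = 0.0169). Nedd9 went from 86.0 ± 9.32 to 67.2 ± 7.46 CPM (SD) with all 6 BI tumors below the vehicle tumors, as for Bcar1. Efs, a further relative of p130Cas in that list, lay the other way at a log2 fold change of 0.57 from 1.62 CPM and was not called (adjusted p = 0.104). Without vehicle replicate 3, neither Asap1 (adjusted p = 0.0573) nor Nedd9 (adjusted p = 0.103) was called.

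The 19 actin linkers tested held 3 genes that rose and 8 that fell, where 14.6% of all genes tested were called higher and 14.1% lower. Fermt3, encoding the kindlin of blood cells, went from 54.6 ± 8.39 to 105 ± 7.05 CPM (SD), a log2 fold change of 0.95 (adjusted p = 4.17e-05). Evl, an actin-binding protein of the Ena/VASP family, rose by 0.87 (adjusted p = 5.19e-05), and Tns1, encoding tensin 1, by 0.92 (adjusted p = 0.000721). The genes that fell included Fermt2, the kindlin of most adherent cells (-0.39, adjusted p = 0.000363), Actn1, encoding alpha-actinin 1 (-0.40, adjusted p = 0.000467), and Tns3, encoding tensin 3 (-0.47, adjusted p = 0.00124). The other 5 were Trip6, Tln2, Enah, Actn4 and Lasp1, with log2 fold changes between -0.46 and -0.23. Within the families, Evl and Enah, Tns1 and Tns3, and Fermt3 and Fermt2 were called in opposite directions. Other members of these families, Vasp (log2 fold change 0.13), Tns2 (0.11) and Tns4 (0.13), were not called. Fermt1, the remaining kindlin, had 0 counts in each vehicle tumor and at most 7 in a BI tumor, and was not tested.

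In the ILK-PINCH-parvin list of 6 genes, Parvg rose (0.90, adjusted p = 0.000635) and Parva fell (-0.27, adjusted p = 0.0352), while Lims1, encoding PINCH-1, at a log2 fold change of 0.01 and Rsu1, which binds PINCH-1, at 0.00 were not called. The call of Parva was lost without any 1 of the vehicle tumors and without BI replicate 4 (adjusted p between 0.0587 and 0.138). Among the further genes called, exons of Fermt3, Evl, Sorbs3 and Actn4 also overlap a gene on the other strand.

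**Figure D4:**
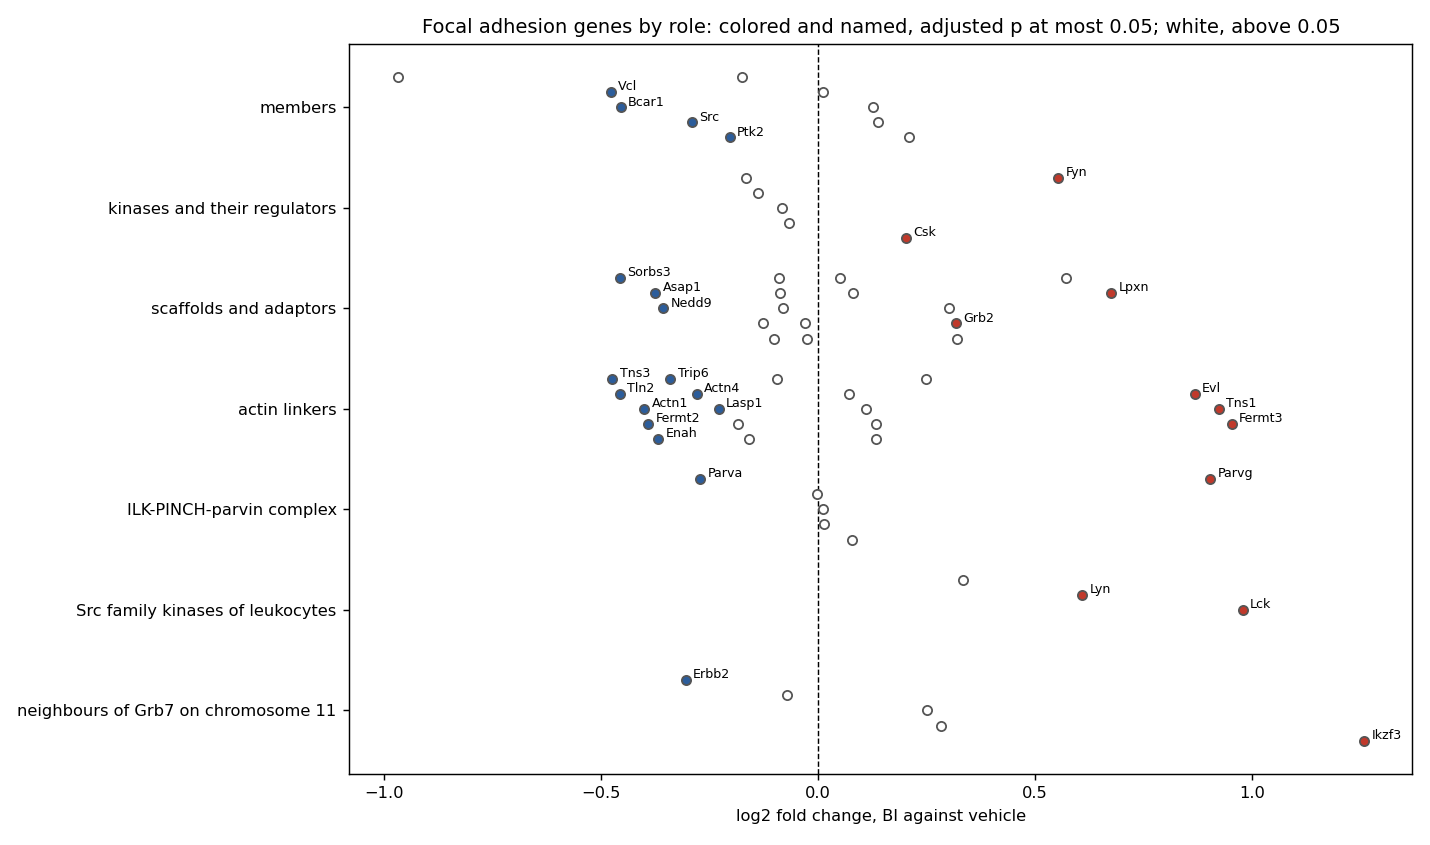
Log2 fold change of BI against vehicle (horizontal axis) of the 10 members and of the other genes by list (rows), colored and named where the adjusted p was at most 0.05, with 1 point per gene tested. The scaffolds, actin linkers and parvin rows each hold called genes on both sides of 0, from Fermt3 at 0.95 to Tns3 at -0.47.

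Pairs of paralogs of which one is known from leukocytes were compared within each tumor, as the difference of their log2 CPM, which does not depend on the scaling of the library. For Fermt3 against Fermt2 the difference went from -1.98 ± 0.282 (SD, n = 3) to -0.63 ± 0.117 (SD, n = 6), a shift of 1.35. Parvg against Parva shifted by 1.19, from -5.75 ± 0.254 to -4.56 ± 0.264, and Lpxn against Pxn by 0.66, from -3.39 ± 0.0950 to -2.73 ± 0.236. In these 3 pairs all 6 BI tumors lay above all 3 vehicle tumors. No p is given for them, since Fermt3, Fermt2, Parvg, Parva and Lpxn each separated the groups on their own. For Ptk2b against Ptk2 the difference went from -1.16 ± 0.225 to -0.75 ± 0.179, a shift of 0.41 that did not pass (two-sided exact permutation p = 0.0714). BI replicate 6, at -1.08, was the only BI tumor inside the vehicle range of -1.42 to -1.02 for that pair, and without it the shift was 0.48.

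**Figure D5:**
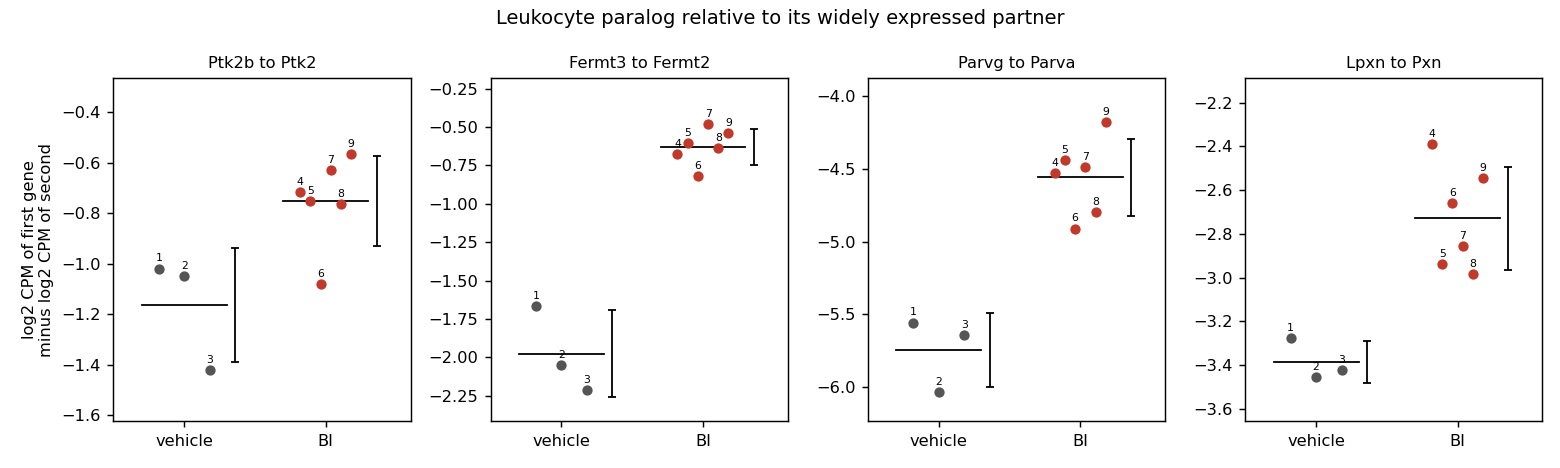
Difference in log2 CPM between the paralogs of each pair (vertical axis) in the 3 vehicle and 6 BI tumors, with a point per tumor, lines at the group mean and bars of ± 1 SD. The BI tumors are above all vehicle tumors for Fermt3 to Fermt2, Parvg to Parva and Lpxn to Pxn, and 5 of 6 are for Ptk2b to Ptk2.

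Src was also set beside Src family kinases that are used mainly by blood cells. Of 3 examined (Blk was too low to be tested), Lyn rose by 0.61 (adjusted p = 0.000319) and Lck by 0.98 (adjusted p = 0.00101) in edgeR's test, while Fgr had a log2 fold change of 0.33 that did not pass (adjusted p = 0.189). Lyn, with 145 ± 16.2 CPM in vehicle and 220 ± 16.5 CPM in BI tumors (SD), changed in the opposite direction to Src. Exons of Lyn overlap a gene annotated on the other strand.

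Grb7 lies beside Erbb2, encoding the receptor that its protein binds, on chromosome 11. Of the 5 neighbors tested, Erbb2 fell from 40.8 ± 2.94 to 33.0 ± 1.78 CPM (SD), a log2 fold change of -0.31 (adjusted p = 0.00686 in edgeR's test), and Ikzf3, encoding the lymphocyte factor Aiolos, rose by 1.26 from 3.25 CPM (adjusted p = 7.57e-05). Mien1 (0.25), Stard3 (0.28) and Pgap3 (-0.07) were not called. Over all genes tested, 14.6% were called higher and 14.1% lower. Exons of Erbb2 and Mien1 overlap on opposite strands.

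Transcript levels of marker genes of several cell types differed between the groups alongside these values. The counts of markers called stand beside shares of 14.6% called higher and 14.1% called lower over all genes tested. All 7 leukocyte markers were called higher, with a summed level of 1070 to 1170 CPM in vehicle and 1518 to 1846 CPM in BI tumors. Of 7 macrophage markers 6 were called higher and Cd14 lower (summed 1508 to 1983 CPM, then 2749 to 3441 CPM), and all 5 T cell markers were called higher (34.9 to 37.6 CPM, then 62.1 to 88.2 CPM). Mast cell markers (5 of 5 higher, 23.5 to 40.9 CPM, then 45.5 to 346 CPM) and endothelial markers (3 of 5 higher, 162 to 187 CPM, then 185 to 266 CPM) had called genes in that direction only. Of 4 B cell markers 2 were called higher, Ms4a1 and Cd79a were not called, the latter at a log2 fold change of -0.33, and the summed levels overlapped (4.43 to 7.98 CPM, then 5.80 to 10.8 CPM). Of the neutrophil markers 3 of 5 were called lower, with a summed level of 1064 to 1225 CPM in vehicle and 361 to 827 CPM in BI tumors.

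Among 6 markers of the carcinoma epithelium, Krt8 and Krt18 were called lower and none higher, with summed levels of 941 to 1168 CPM in vehicle and 740 to 942 CPM in BI tumors. Krt8 and Krt18 made up most of that sum. The other 4, at group means of 10.8 CPM or less, were not called and had log2 fold changes above 0 (Epcam 1.06, Krt7 0.59, Krt19 0.15 and Cldn7 0.11), and the median over the 6 was 0.13. Fibroblast markers (0 of 5 called, 1003 to 1616 CPM, then 1423 to 2550 CPM) overlapped between the groups. No call was made among skeletal muscle (5 tested, summed 6.14 to 18.3 CPM, then 5.02 to 14.5 CPM) and adipocyte markers (4 tested, 4.74 to 9.63 CPM, then 4.44 to 42.0 CPM), and 1 each was called higher among 5 smooth muscle (75.9 to 91.7 CPM, then 92.1 to 113 CPM) and 4 platelet markers tested (37.4 to 59.2 CPM, then 38.2 to 66.8 CPM). No marker was at 0 in all 9 tumors. The part of these cell types in the values of the 10 genes and of their paralogs was not tested.

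For Bcar1 and Vcl, the members called in every setting, the genes with the most similar course over the 9 tumors were found from the root mean square of the difference between their centered log2 CPM. For Bcar1 these were Mex3d (0.0668), Eno3 (0.0702) and Vash2 (0.0719), and for Vcl they were Bri3bp (0.0374), Dlg5 (0.0449) and Vash2 (0.0663). Vash2 was near both members, with 35.7 ± 0.990 CPM in vehicle and 26.5 ± 2.40 CPM in BI tumors (SD). The difference between the groups was part of this measure, so a fall in the genes found follows from how they were chosen.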

How the data were processed

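Per the labels and the study's methods, the authors sequenced paired-end libraries made with a stranded kit, aligned reads to mm9 with STAR, kept unique hits, and with QuasR counted reads that started in an exon of each RefSeq gene. The deposited values are raw counts and a gene length, used here for levels per kilobase. According to the study, tumors whose RNA was not of sufficient quality were left out, so the tumors used here are a selection. Strand use and the handling of mates in counting, and any batch, are not given in the sources used here. Of 18755 genes, 18700 matched a RefSeq symbol. Positions are from GENCODE on mm9, and promoters from a RefSeq table matched to mm9.

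Tests on the counts used edgeR 4.0.16 (R 4.3.3) with TMM scaling, filterByExpr (minimum count 10, minimum total 15) and a quasi-likelihood comparison of 6 BI with 3 vehicle tumors with no covariate and Benjamini-Hochberg adjustment. Log2 CPM used a prior count of 2. Scripts were tested on simulated data. The labels give each tumor as a separate sample, and no 2 libraries agreed within sampling noise. Floors in CPM cover counting error only.

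Genes named were the 10 members, up to 3 called genes per direction in each list, the overlapping genes on the other strand, and the 3 most similar genes of members called throughout. The members and lists were chosen with earlier results of these data known, and 1 gene of a list is not reported here. Alternatives were DESeq2 1.42.0, limma-voom (limma 3.58.1), edgeR's likelihood ratio test, other scalings and filters, and each tumor left out.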

Additional observations from a re-analysis of the deposited data

Results flagged for a closer look

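Among the 33 values examined for a tumor standing apart within the 6 BI tumors, 2 exceeded Dixon's critical value at the 95% level for the gap to the nearest tumor as a share of the group's range. Chance flags about 1 in 20 groups. In Ptk2b, BI replicate 6 was the lowest, at 99.0 CPM with the next tumor at 121 CPM, a gap share of 0.749. In Evl, BI replicate 7 was the highest, at 64.4 CPM with the next tumor at 55.2 CPM, a gap share of 0.677, and all 6 BI tumors were above the vehicle tumors there.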

How the results depend on the processing

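The settings other than leaving out a tumor (other scalings, filters, DESeq2, limma-voom and the likelihood ratio test) left 4 to 5 members called lower and 0 called higher. Over single genes, 439 comparisons with an alternative kept direction and call, 15 lost the call, 7 gained it and 2 changed sign, both for Pxn (range without single tumors -0.033 to 0.059). With single tumors left out, members called lower numbered 2 to 5 and members called higher 0 to 1. The calls gained were Ilk without BI replicate 5, Ptk2b without BI replicate 6, Zyx under DESeq2 and without vehicle replicate 3, and Grb7 under the likelihood ratio test, without vehicle replicate 3 and without BI replicate 6. Under the 1.5-fold cutoff the count was 0 to 1 (0 without vehicle replicate 1), with 0 also under a filter of 1 CPM in 3 tumors, which removed Grb7. Of the further focal adhesion genes, 5 to 13 were called lower and 7 to 9 higher. The shifts between paralogs ranged from 0.28 to 0.48 for Ptk2b against Ptk2, 1.23 to 1.51 for Fermt3 against Fermt2, 1.04 to 1.28 for Parvg against Parva, and 0.59 to 0.71 for Lpxn against Pxn. The groups share no replicate numbers, so no paired analysis was possible because no tumors are matched. With 3 vehicle tumors, the calls of Ptk2 and Src depended on single tumors, and the counts of Grb7 limit its precision.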
